A study of Danio rerio with 16 samples.

Results

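Phospholipid and lysophospholipid metabolism was described through 50 zebrafish genes that encode enzymes making, remodelling and breaking down glycerophospholipids. The genes were taken by symbol from a list of 50, all of which were found among the 36109 genes of the count file. The gene symbol was the only identifier in the file. After the filter on low counts, 48 of the 50 were tested, out of 24300 tested genes in all. Because the filter kept genes that were high enough in any group of libraries, the 48 are not all members: ptdss1b and pla2g3 were too low to test.

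The libraries came from zebrafish embryos and measured RNA as read counts per gene in 4 groups of 4 libraries. The controls were untreated wild-type siblings, collected 24 hours (sib24) or 48 hours (sib48) after fertilisation; these ages are written 24 and 48 hpf. Mutants in which lipf and pla2g15 had both been knocked out by CRISPR/Cas9 were sampled at the same ages, called mut24 and mut48. The labels give the tissue as body while the series speaks of the entire embryo, and the sources used here give neither the embryos per library nor the number of mutant lines. Whether the 4 libraries of a group are from different clutches is also not stated, and the p-values reflect the spread among these libraries alone, which may be technical.

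Glycerophospholipids form the membranes of cells and the surface shell of lipoproteins. In the Kennedy pathway, choline or ethanolamine is phosphorylated, activated with CTP and joined to diacylglycerol to give phosphatidylcholine or phosphatidylethanolamine. In the Lands cycle, phospholipases remove an acyl chain to leave a lysophospholipid, and acyltransferases put another chain on it. Pla2g15 is a lysosomal phospholipase and lipf encodes gastric lipase. In the zebrafish embryo the yolk is a store rich in phospholipid, and the yolk syncytial layer around it packs yolk lipid into lipoproteins.

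Total counts ran from 35.9 to 50.5 M per library. Levels are CPM, counts scaled to a common library total with TMM factors. A call means that edgeR's quasi-likelihood test gave an adjusted p (Benjamini-Hochberg, over all tested genes) under 0.05. The targeted gene lipf stood between 17.0 and 31.6 CPM in the sib48 libraries and between 2.03 and 3.03 CPM in the mut48 libraries, and between 8.84 and 25.2 CPM in sib24 against 0.577 and 2.34 CPM in mut24. The pla2g15 transcript was not called at either age (edgeR adjusted p = 0.71 at 24 hpf and 0.468 at 48 hpf). Markers of several tissues were detected in every group. The summed level of 12 yolk syncytial layer markers ran from 267 to 3585 CPM in sib24 and from 185 to 3703 CPM in mut24, so the libraries of 24 hpf differed widely within each genotype. It ran from 2653 to 4279 CPM in sib48 and from 2019 to 2669 CPM in mut48, with 1 of the 12 markers called lower and 0 higher at 48 hpf, and none of the 12 was at 0 in a library of that age. The yolk marker score, the mean log2(CPM + 1) of the 12, ran from 6.61 to 7.23 in sib48 and from 5.99 to 6.19 in mut48, so it was lower in every mutant library and follows genotype at 48 hpf where it is used as a covariate.

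At 48 hpf, mutants had more RNA of tmem86a and of the choline kinase gene chka, and less of the choline kinase gene chkb, of the phosphotransferase genes chpt1 and cept1b that complete phosphatidylcholine, of the acyltransferase gene mboat7 and of the weakly expressed tmem86b. These 7 of 48 tested members (14.6%) were called, against 7.43% of all tested genes. By direction, 2 members (4.17%) were higher against 2.84% of all genes, and 5 (10.4%) were lower against 4.59%. Of these 5, tmem86b passed the filter on low counts through sib48, the group where it was high. The split of the calls over all genes, 691 higher and 1115 lower, turned to 819 and 746 under upper-quartile scaling, where the members called were 2 higher and 4 lower. The count of 2 higher became 1 without sib48 replicate 2 or 4, and the count of 5 lower became 3 (cept1b, chpt1 and mboat7) without sib48 replicate 2, mut48 replicate 1 or mut48 replicate 3. The share of all tested genes called also moved, from 7.43% to 3.39% without sib48 replicate 2, 4.61% without sib48 replicate 3, 3.78% without sib48 replicate 4 and 4.4% without mut48 replicate 2. The median log2 fold change was -0.08 over the tested members and -0.04 over all tested genes. Of the members 16 were above 0 and 32 below, while 44.8% of all tested genes were above 0. The median size of the change without its sign was 0.16 over the members and 0.20 over all tested genes. The groups did not overlap for 9 members (18.8%), tmem86b among them, against 14.2% of all tested genes. In bulk samples such as these, fewer cells of a type and less RNA per cell cannot be told apart.

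**Figure D1:**
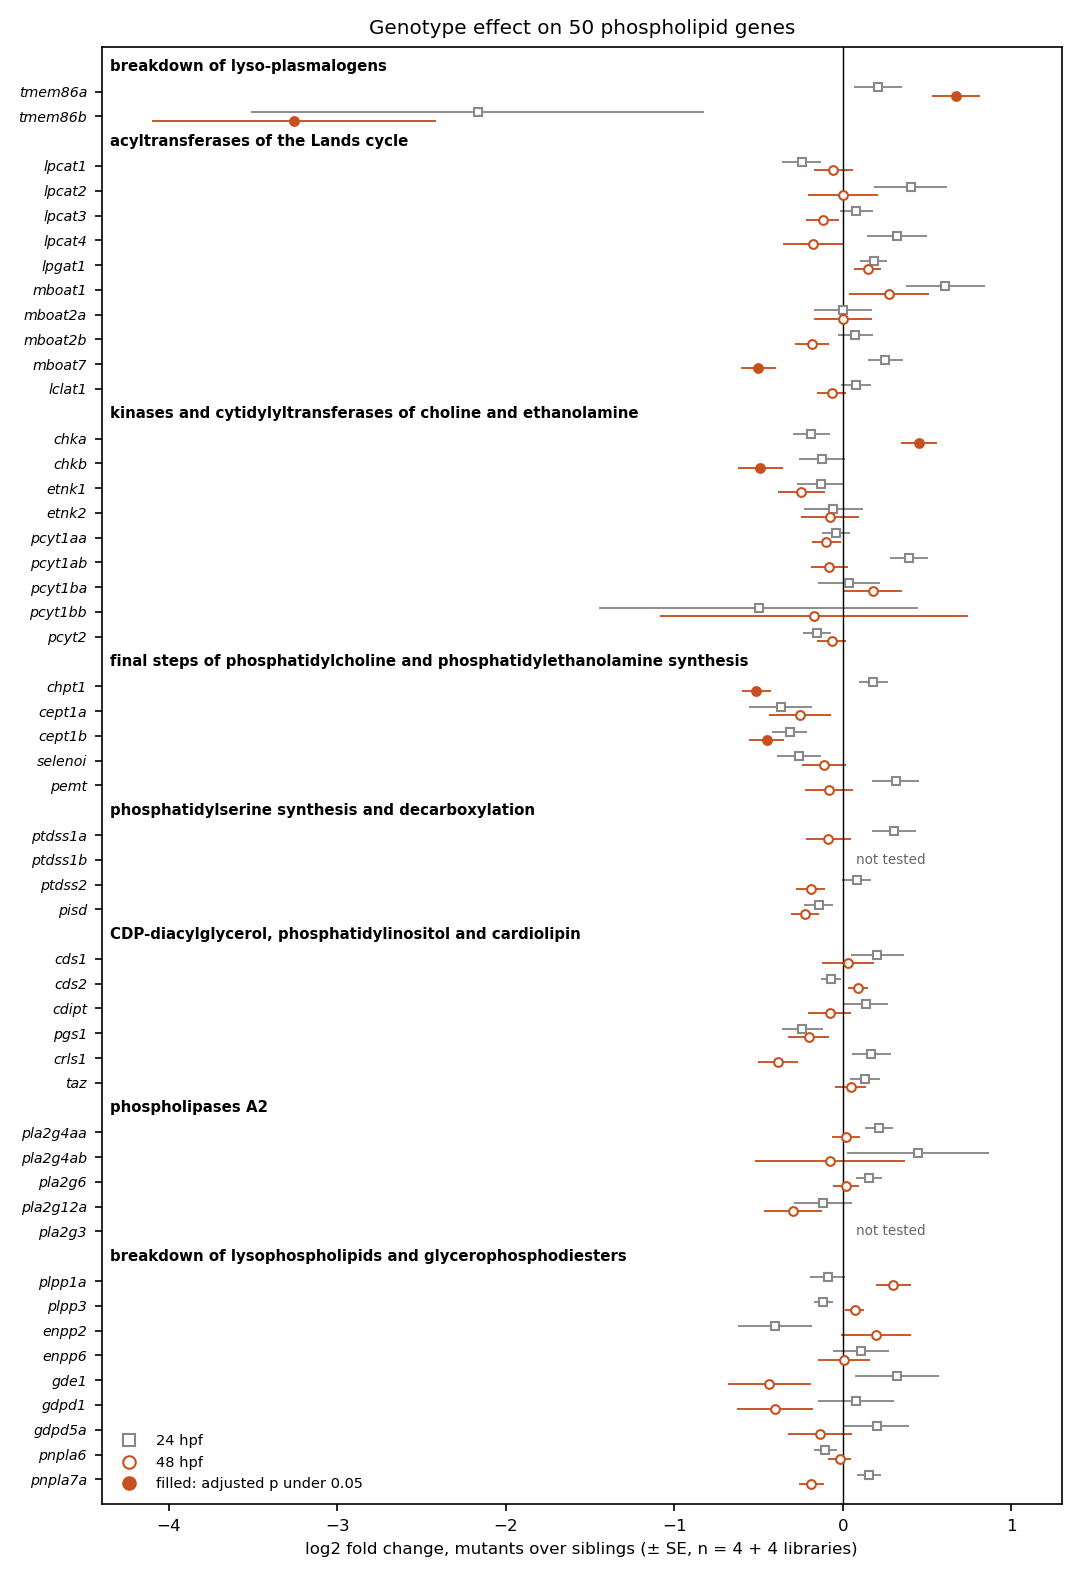
Log2 fold change of mutants over siblings for the 48 tested members, grouped by role with the 2 not tested marked, at 24 hpf (squares) and 48 hpf (circles). Bars are 1 SE for 4 + 4 compared libraries, with the spread taken from all 16 libraries in the fit. Filled symbols passed an adjusted p under 0.05. All 7 of them are circles, 2 to the right of 0 and 5 to its left.

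The pair tmem86a and tmem86b encode lysoplasmalogenases that cleave the vinyl ether bond of lyso-plasmalogens (the lysophospholipids of ether lipids). At 48 hpf tmem86a was called higher in mutants and tmem86b lower. The call of tmem86b is not free of selection by the filter on low counts and was lost in several alternatives, given below. The level of tmem86a in sib48 replicates 1 to 4 was 48.4, 42.8, 44.8 and 36.4 CPM, and in mut48 replicates 1 to 4 it was 70.4, 65.5, 60.3 and 77.8 CPM. Every mutant library thus stood above every sibling library of that age. The means were 43.1 ± 5.02 and 68.5 ± 7.44 CPM (SD, n = 4), a rise of 1.59-fold (log2 fold change 0.67, SE 0.143, edgeR adjusted p = 0.00971). At 24 hpf tmem86a ran from 18.6 to 28.9 CPM in sib24 and from 20.9 to 32.0 CPM in mut24, and the groups overlapped (log2 fold change 0.21, edgeR adjusted p = 0.578). RefSeq's gene table for GRCz12tu (the counts were made on another build) places tmem86a on the chromosome of pla2g15 with 226 protein-coding genes between them. An effect of the knockout and an allele of tmem86a carried along with the mutated chromosome cannot be told apart here.

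The transcript of tmem86b was scarce. It stood at 1.28, 1.82, 0.488 and 0.866 CPM in sib48 replicates 1 to 4 and at 0.137, 0.0906, 0 and 0.233 CPM in mut48 replicates 1 to 4, which were 185 reads in all against 20. The groups did not overlap, and the log2 fold change was -3.26 (SE 0.843, edgeR adjusted p = 0.0268). The gene passed the filter on low counts through sib48, the group where it was high. Its call lower in mut48 is therefore not free of that selection. Under the stricter filter of at least 1 CPM in at least 4 libraries, tmem86b was not tested. At 24 hpf 10 reads were counted in sib24 and 2 in mut24, too few to compare. The call of tmem86b at 48 hpf was lost with 1 library left out in several cases, with edgeR adjusted p = 0.0929 without sib48 replicate 2, 0.0533 without sib48 replicate 4, 0.0538, 0.0792 and 0.0562 without mut48 replicates 1, 2 and 3. It was also lost with the mean of the yolk syncytial layer markers as a covariate, an alternative added after seeing the data (edgeR adjusted p = 0.073).

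**Figure D2:**
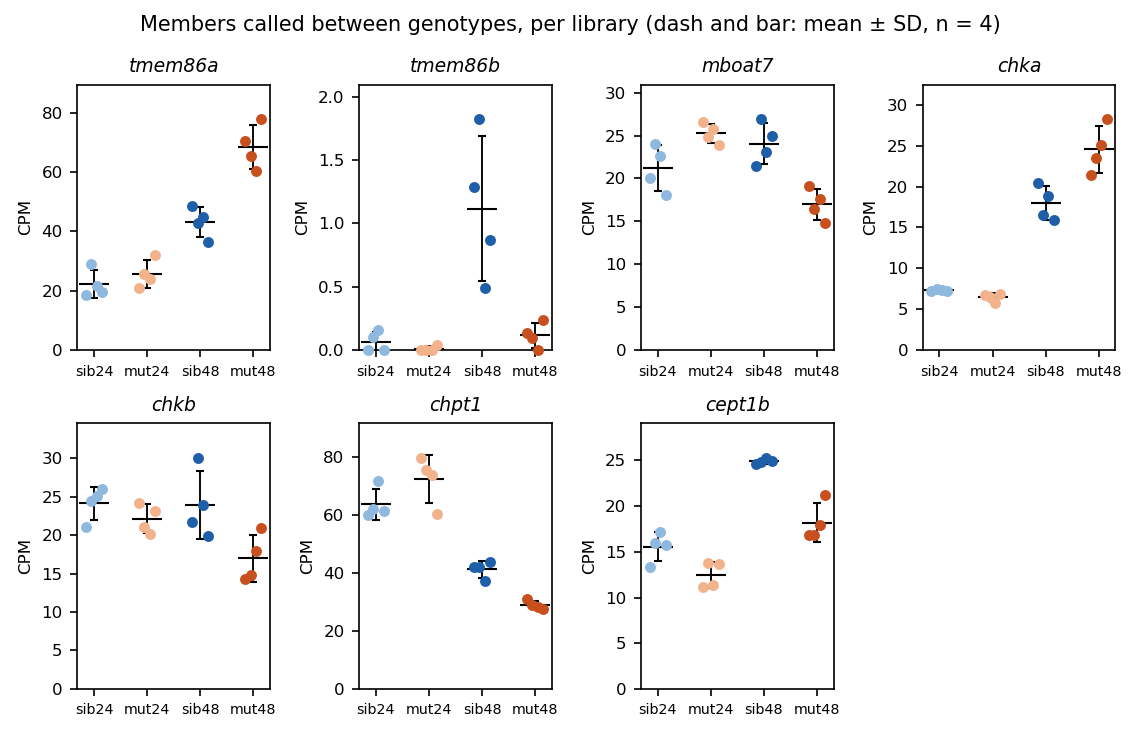
Levels in CPM of the 7 members called between genotypes, 1 point per library in sib24, mut24, sib48 and mut48, with the mean and SD of 4 libraries. At 48 hpf the mutant points of tmem86a and chka lie above all sibling points, those of tmem86b, mboat7, chpt1 and cept1b below them, and those of chkb overlap with them.

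Among the 10 acyltransferases of the Lands cycle, 9 were not called at 48 hpf. In mut48 1 was lower and 0 higher, against 4.59% and 2.84% of all tested genes. The gene called was mboat7, whose enzyme puts arachidonic acid onto lysophosphatidylinositol. It stood at 21.4, 26.9, 23.1 and 24.9 CPM in sib48 replicates 1 to 4 and at 19.1, 16.5, 17.6 and 14.8 CPM in mut48 replicates 1 to 4. The mutant libraries were all below the sibling libraries, with means of 24.1 ± 2.38 against 17.0 ± 1.84 CPM (SD, n = 4), and mboat7 fell 1.42-fold (log2 fold change -0.50, SE 0.104, edgeR adjusted p = 0.00825). The other 9 acyltransferases had log2 fold changes from -0.18 for mboat2b to 0.27 for mboat1 at 48 hpf, with edgeR adjusted p-values from 0.317 to 0.999. They comprised the lysophosphatidylcholine acyltransferases lpcat1, lpcat2, lpcat3 and lpcat4, the lysophosphatidylglycerol acyltransferase lpgat1, the lysocardiolipin acyltransferase lclat1, and mboat1, mboat2a and mboat2b, which act on lysophosphatidylethanolamine and related lipids. For lpcat3, which in mammals makes phospholipids with polyunsaturated chains and is a target of liver X receptors, the log2 fold change at 48 hpf was -0.12, from 31.3 ± 3.88 to 28.8 ± 3.97 CPM (SD, n = 4, edgeR adjusted p = 0.528, 95% interval -0.33 to 0.09).

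The choline kinases, which trap choline as phosphocholine at the entry of the Kennedy pathway, differed in opposite directions at 48 hpf. The level of chka was 20.5, 16.6, 18.9 and 15.9 CPM in sib48 replicates 1 to 4 and 21.4, 23.5, 25.0 and 28.2 CPM in mut48 replicates 1 to 4. The lowest mutant library stood just above the highest sibling library. The rise was 1.37-fold, from 18 ± 2.1 to 24.6 ± 2.87 CPM (SD, n = 4, log2 fold change 0.45, SE 0.105, edgeR adjusted p = 0.0152). It was not called without sib48 replicate 2 (edgeR adjusted p = 0.0582) or sib48 replicate 4 (edgeR adjusted p = 0.0574).

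The level of chkb was 21.7, 30.0, 24.0 and 19.8 CPM in sib48 replicates 1 to 4 and 14.3, 14.8, 17.9 and 20.9 CPM in mut48 replicates 1 to 4. Here the groups overlapped, with mut48 replicate 4 above sib48 replicate 4. The fall was 1.4-fold, from 23.9 ± 4.42 to 17.0 ± 3.06 CPM (SD, n = 4, log2 fold change -0.49, SE 0.135, edgeR adjusted p = 0.0353). Of the 7 calls, this was the one lost in the most alternatives run. Its edgeR adjusted p was 0.132 without sib48 replicate 2, 0.0726 without sib48 replicate 3, and 0.09, 0.105 and 0.0541 without mut48 replicates 1, 2 and 3. It was 0.0514 under upper-quartile scaling, 0.0545 without a filter on low counts, 0.103 when only sib48 and mut48 were fitted, and 0.0812 without the 24 hpf libraries poor in yolk markers.

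The other 7 kinases and cytidylyl-transferases were not called at 48 hpf. They were the ethanolamine kinase genes etnk1 and etnk2, the cytidylyl-transferase genes pcyt1aa, pcyt1ab, pcyt1ba and pcyt1bb, whose enzyme activates phosphocholine and sets the pace of the pathway, and pcyt2, which does the same for phosphoethanolamine. Their log2 fold changes ran from -0.25 for etnk1 to 0.18 for pcyt1ba, with edgeR adjusted p-values from 0.331 to 0.946. The 95% interval for pcyt1aa was -0.27 to 0.08, while that for pcyt1bb was -2.09 to 1.75, too wide to show a difference. At 48 hpf pcyt1bb ran from 0.754 to 3.37 CPM in sib48 and from 1.51 to 2.48 CPM in mut48. Its interval also takes in the spread at 24 hpf, which the fit shares. The coefficient of variation was 87.3% in sib24 and 152% in mut24, against 48.5% in sib48 and 21.1% in mut48.

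Of the 5 genes for the last steps of phosphatidylcholine and phosphatidylethanolamine synthesis, 2 were lower and 0 higher in mut48. Over all tested genes, 4.59% were lower and 2.84% higher. The choline phosphotransferase gene chpt1, whose enzyme joins activated choline to diacylglycerol, had the smallest p of all members at 48 hpf. It stood at 42.1, 42.2, 37.1 and 43.9 CPM in sib48 replicates 1 to 4 and at 30.9, 29.0, 28.2 and 27.7 CPM in mut48 replicates 1 to 4, with a gap between the groups. The means were 41.3 ± 2.93 and 29.0 ± 1.43 CPM (SD, n = 4), a fall of 1.43-fold (log2 fold change -0.51, SE 0.087, edgeR adjusted p = 0.00221).

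The gene cept1b encodes a phosphotransferase that accepts choline as well as ethanolamine. It was tightly grouped in siblings at 24.6, 24.8, 25.3 and 25.0 CPM in sib48 replicates 1 to 4, and stood at 16.9, 16.8, 17.9 and 21.3 CPM in mut48 replicates 1 to 4, all lower. It fell 1.37-fold, from 24.9 ± 0.290 to 18.2 ± 2.09 CPM (SD, n = 4, log2 fold change -0.45, SE 0.103, edgeR adjusted p = 0.0142). Its paralog cept1a, which can share reads with it where the sequences are alike, had a log2 fold change of -0.25 (edgeR adjusted p = 0.471, 95% interval -0.64 to 0.14). The ethanolamine phosphotransferase gene selenoi had -0.11 and pemt, whose enzyme methylates phosphatidylethanolamine to phosphatidylcholine, had -0.08, and neither was called (edgeR adjusted p = 0.693 and 0.807). All 5 log2 fold changes of this group were below 0, at an age when 44.8% of all tested genes were above 0. By assembly GRCz12tu, pemt lies on the chromosome of lipf with 295 protein-coding genes between them.

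With the yolk marker score as a covariate, added after seeing the data, edgeR called 2 members higher (chka and tmem86a) and 5 lower (cept1b, chkb, chpt1, crls1 and mboat7) at 48 hpf. Without the 2 libraries of each genotype at 24 hpf that were poorest in these markers, also added after seeing the data, it called 2 higher and 4 lower. Skeletal muscle markers, 8 in all, summed to between 30135 and 45140 CPM in sib48 and between 25771 and 37925 CPM in mut48, and the 8 neural and glial markers to between 1915 and 2049 CPM against 1757 and 2046 CPM. In each of these lists 1 marker was called lower and 0 higher at 48 hpf. The 8 markers of epidermis summed to between 14764 and 16342 CPM against 16289 and 17779 CPM. The 8 of blood and vessels summed to between 1067 and 1259 CPM against 917 and 1407 CPM, and the 8 of liver to between 465 and 742 CPM against 393 and 645 CPM. No marker of these last lists was called, 1 liver marker and, in mut48, 1 neural marker was at 0 in at least 1 library of 48 hpf, and the part of muscle, nerve, skin, blood and liver in the results was not tested.

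None of the 3 tested phosphatidylserine genes was called between genotypes at 48 hpf. The same held for the 6 genes of CDP-diacylglycerol, phosphatidylinositol and cardiolipin, against 7.43% of all tested genes. Among phosphatidylserine genes, pisd, the mitochondrial decarboxylase that turns phosphatidylserine into phosphatidylethanolamine, had the smallest p. It stood at 37.0, 39.2, 38.5 and 41.1 CPM in sib48 replicates 1 to 4 and at 31.9, 31.3, 30.8 and 39.2 CPM in mut48 replicates 1 to 4, so that mut48 replicate 4 lay among the siblings (log2 fold change -0.23, SE 0.0841, edgeR adjusted p = 0.115). Without that library pisd was called lower (edgeR adjusted p = 0.0251). The phosphatidylserine synthase genes ptdss1a and ptdss2 had log2 fold changes of -0.09 and -0.19, and ptdss1b held 16 reads in sib48 and 12 in mut48 and 0 reads in all libraries of 24 hpf. The gene ptdss2 lies on the chromosome of pla2g15 (assembly GRCz12tu), with 127 protein-coding genes between them.

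The cardiolipin synthase gene crls1, whose enzyme makes the signature lipid of the inner mitochondrial membrane, was just outside the threshold. It was 12.7, 13.5, 11.3 and 12.5 CPM in sib48 replicates 1 to 4 and 10.6, 11.1, 8.70 and 7.87 CPM in mut48 replicates 1 to 4. The groups did not overlap, and the log2 fold change was -0.39 (SE 0.119, edgeR adjusted p = 0.0567). It was called lower by DESeq2 (adjusted p = 0.0369), without mut48 replicate 2 (edgeR adjusted p = 0.0424) and with the yolk marker covariate (edgeR adjusted p = 0.047). The other 5 genes of this role were the CDP-diacylglycerol synthase genes cds1 and cds2, the phosphatidylinositol synthase gene cdipt, the phosphatidylglycerophosphate synthase gene pgs1, and taz, which RefSeq lists as a synonym of tafazzin, the remodeller of cardiolipin. The log2 fold changes of these 5 at 48 hpf ran from -0.20 for pgs1 to 0.09 for cds2. The gene pgs1 lies on the chromosome of lipf (assembly GRCz12tu), with 326 protein-coding genes between them.

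None of the 4 tested phospholipase A2 genes was called, against 7.43% of all tested genes at 48 hpf. These enzymes release an acyl chain and leave a lysophospholipid. The log2 fold changes at 48 hpf were 0.02 for the cytosolic pla2g4aa, -0.08 for pla2g4ab, 0.02 for the calcium-independent pla2g6 and -0.30 for the secreted pla2g12a. The smallest p was that of pla2g12a, at 10.3, 10.2, 9.27 and 11.2 CPM in sib48 replicates 1 to 4 and 10, 8.04, 7.79 and 7.47 CPM in mut48 replicates 1 to 4, with overlap (edgeR adjusted p = 0.338). The intervals for pla2g4aa, from -0.16 to 0.19, and for pla2g6, from -0.15 to 0.18, are narrow, while pla2g4ab was near the filter at 0.565 CPM in sib48. The secreted pla2g3 held between 10 and 30 reads per group and was not tested.

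Of 9 genes that break down lysophospholipids and glycerophosphodiesters, none was called at 48 hpf, against 7.43% of all tested genes. Leading by p was plpp1a, a lipid phosphate phosphatase that acts on lysophosphatidic acid and phosphatidic acid. It was 28, 30.4, 27.9 and 27.9 CPM in sib48 replicates 1 to 4 and 28.3, 34.2, 40.9 and 37.1 CPM in mut48 replicates 1 to 4. Mutant replicate 1 lay among the siblings (log2 fold change 0.30, SE 0.104, edgeR adjusted p = 0.0911). Without that library plpp1a was called higher (edgeR adjusted p = 0.0235). The log2 fold change was 0.07 for the related plpp3, 0.20 for enpp2 (autotaxin, the secreted enzyme that makes lysophosphatidic acid) and 0.01 for enpp6, a choline-specific phosphodiesterase. Among the glycerophosphodiesterase genes it was -0.44 for gde1, -0.40 for gdpd1 and -0.14 for gdpd5a, and among the lysophospholipase genes of the neuropathy target esterase family -0.02 for pnpla6 and -0.19 for pnpla7a. The groups of gdpd1 and pnpla7a did not overlap, with edgeR adjusted p = 0.32 and 0.134. The fit takes the spread of a gene from all 4 groups. For gdpd1 the coefficient of variation was 38.3% in sib24 and 34.4% in mut24, against 10.7% in sib48 and 12.3% in mut48.

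At 24 hpf no member was called by edgeR, 0 higher and 0 lower, against 0.831% of all tested genes (0.391% higher and 0.44% lower). With 1 library left out that share ran from 0.251% without sib24 replicate 1 to 1.87% without sib24 replicate 3. DESeq2 also called 0 members. An unadjusted edgeR p under 0.05 was reached by 9 of the 48. The share of all tested genes that reached it was not computed, so this count has no background to be set against. The median log2 fold change was 0.08 over the members and -0.0033 over all tested genes, and the groups did not overlap for 4 members (8.33%) against 8.52% of all tested genes. The smallest p, named after its value was seen, was that of pcyt1ab, at 19.4, 16.6, 15.1 and 18.6 CPM in sib24 replicates 1 to 4 and 26.1, 21.5, 23.3 and 20.6 CPM in mut24 replicates 1 to 4. Every mutant library stood above every sibling library, with a log2 fold change of 0.39 (SE 0.112, edgeR adjusted p = 0.104). Of the acyltransferases, 9 of 10 had a log2 fold change above 0 at this age, against 49.1% of all tested genes, and 0 were called. Among these 9, mboat2a was at 0.0008 and lpcat3 at 0.08. The widest of these was mboat1 at 0.61 (edgeR adjusted p = 0.245), which ran from 13.8 to 32.9 CPM in sib24 and from 23.2 to 41.2 CPM in mut24. It was called higher with the yolk marker covariate and without sib24 replicate 3, so the count of 0 became 1 in each of these fits. At 24 hpf the epidermis markers summed to between 8330 and 13864 CPM in sib24 and between 14615 and 20440 CPM in mut24, and 3 of 8 were called higher. The 8 skeletal muscle markers went the other way, with sums from 10829 to 14231 CPM in sib24 and from 9448 to 10763 CPM in mut24, and 0 were called. The sums of the neural, blood and liver lists overlapped between genotypes at this age. The part of these tissues in the results was not tested.

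The difference between genotypes itself differed between the ages for 2 members, chpt1 and mboat7, which are 4.17% of the 48 tested against 1% of all tested genes. Both calls were lower, against 0.519% of all tested genes, and 0 were higher, against 0.486%. Over all genes the interaction was called higher for 118 and lower for 126, which became 131 and 93 under RLE scaling and 148 and 77 under upper-quartile scaling. Both were lower in mutants at 48 hpf and were not lower at 24 hpf. At 24 hpf chpt1 stood at 59.9, 62.2, 71.7 and 61.4 CPM in sib24 replicates 1 to 4 and at 79.6, 75.6, 73.7 and 60.4 CPM in mut24 replicates 1 to 4. The log2 fold change was 0.18 at 24 hpf (edgeR adjusted p = 0.365) and -0.51 at 48 hpf, and the interaction of genotype and age was -0.70 (SE 0.122, edgeR adjusted p = 0.0134).

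For mboat7, the level at 24 hpf was 20, 24.0, 22.7 and 18.1 CPM in sib24 replicates 1 to 4 and 26.5, 24.8, 25.7 and 24.0 CPM in mut24 replicates 1 to 4. The log2 fold change was 0.25 at 24 hpf (edgeR adjusted p = 0.279) and -0.50 at 48 hpf, and the interaction was -0.76 (SE 0.147, edgeR adjusted p = 0.0228). The interaction of mboat7 was not called without sib24 replicate 1 (edgeR adjusted p = 0.0503), without sib48 replicate 2 (edgeR adjusted p = 0.055) or without the 24 hpf libraries poor in yolk markers (edgeR adjusted p = 0.129). The interaction of chka was 0.64 (SE 0.151, edgeR adjusted p = 0.0507), just outside the threshold, with 7.23 to 7.46 CPM in sib24 and 5.7 to 6.85 CPM in mut24. It was called under RLE scaling (edgeR adjusted p = 0.0477), upper-quartile scaling (0.0432), the stricter filter (0.0434), the yolk marker covariate (0.0455) and by DESeq2 (0.00673), and without sib48 replicate 1 (edgeR adjusted p = 0.0347) or mut48 replicate 1 (edgeR adjusted p = 0.0326).

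From 24 to 48 hpf, most members changed with age in both genotypes. In siblings 20 of 48 members rose and 15 fell, together 72.9% against 63.3% of all tested genes. In mutants 15 rose and 20 fell, together 72.9% against 64.4%. In all, 15 members rose in both genotypes, 14 fell in both, 6 were called in siblings but not in mutants, 6 in mutants but not in siblings, 7 in neither, and 0 in opposite directions. A call in 1 genotype and not in the other does not show a difference between them, which only the interaction tests. The groups of the 2 ages did not overlap for 31 members (64.6%) in siblings, against 59.2% of all tested genes, and for 31 (64.6%) in mutants, against 58.8%.

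Among members called in siblings, the largest rises were those of tmem86b, enpp6, lpcat2 and enpp2. The gene tmem86b went from 10 reads in sib24 to 185 in sib48 (log2 fold change 4.04, SE 0.911, edgeR adjusted p = 0.000861). It passed the filter on low counts through sib48, so this rise is not free of that selection. In mutants it went from 2 reads in mut24 to 20 in mut48, where it was narrowly called (edgeR adjusted p = 0.0465). The call in mutants was lost without sib24 replicate 2, mut24 replicate 1, 2 or 3, sib48 replicate 1, 2 or 4, or mut48 replicate 1, 2 or 4, with edgeR adjusted p from 0.0524 to 0.144, and with the yolk marker covariate (edgeR adjusted p = 0.164). In mice enpp6 is a marker of newly forming oligodendrocytes. It rose 4.71-fold in siblings, from 2.57 ± 0.539 to 12.1 ± 0.486 CPM (SD, n = 4, edgeR adjusted p = 1.97e-09), and 4.4-fold in mutants (edgeR adjusted p = 2.92e-09). The acyltransferase gene lpcat2, prominent in mammalian macrophages, rose 3.09-fold in siblings (edgeR adjusted p = 3.74e-06) and 2.34-fold in mutants (edgeR adjusted p = 6.99e-05). The autotaxin gene enpp2 rose 2.97-fold in siblings, from 2.97 ± 0.822 to 8.83 ± 1.17 CPM (edgeR adjusted p = 4.93e-06), and 4.49-fold in mutants (edgeR adjusted p = 1.05e-07), and its interaction was not called (edgeR adjusted p = 0.345).

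Among members called in siblings, the largest falls were those of crls1, plpp1a, ptdss2 and chpt1. The cardiolipin synthase gene crls1 fell 1.81-fold in siblings, from 22.6 ± 2.94 to 12.5 ± 0.928 CPM (SD, n = 4, edgeR adjusted p = 5.4e-06), and 2.66-fold in mutants, from 25.4 ± 1.56 to 9.56 ± 1.53 CPM (edgeR adjusted p = 1.01e-08). Its interaction was not called (edgeR adjusted p = 0.105). The gene chpt1 fell 1.54-fold in siblings (edgeR adjusted p = 5.59e-06) and 2.5-fold in mutants (edgeR adjusted p = 4.06e-10), the difference given by the interaction above. The phosphatidylserine synthase gene ptdss2 fell 1.55-fold in siblings (edgeR adjusted p = 3.81e-06) and 1.88-fold in mutants (edgeR adjusted p = 4.05e-08). The fall of plpp1a was 1.6-fold in siblings (edgeR adjusted p = 1.79e-05) and 1.22-fold in mutants (edgeR adjusted p = 0.02), where it was not called without mut24 replicate 3 (edgeR adjusted p = 0.0834) or mut48 replicate 1 (edgeR adjusted p = 0.0753).

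**Figure D3:**
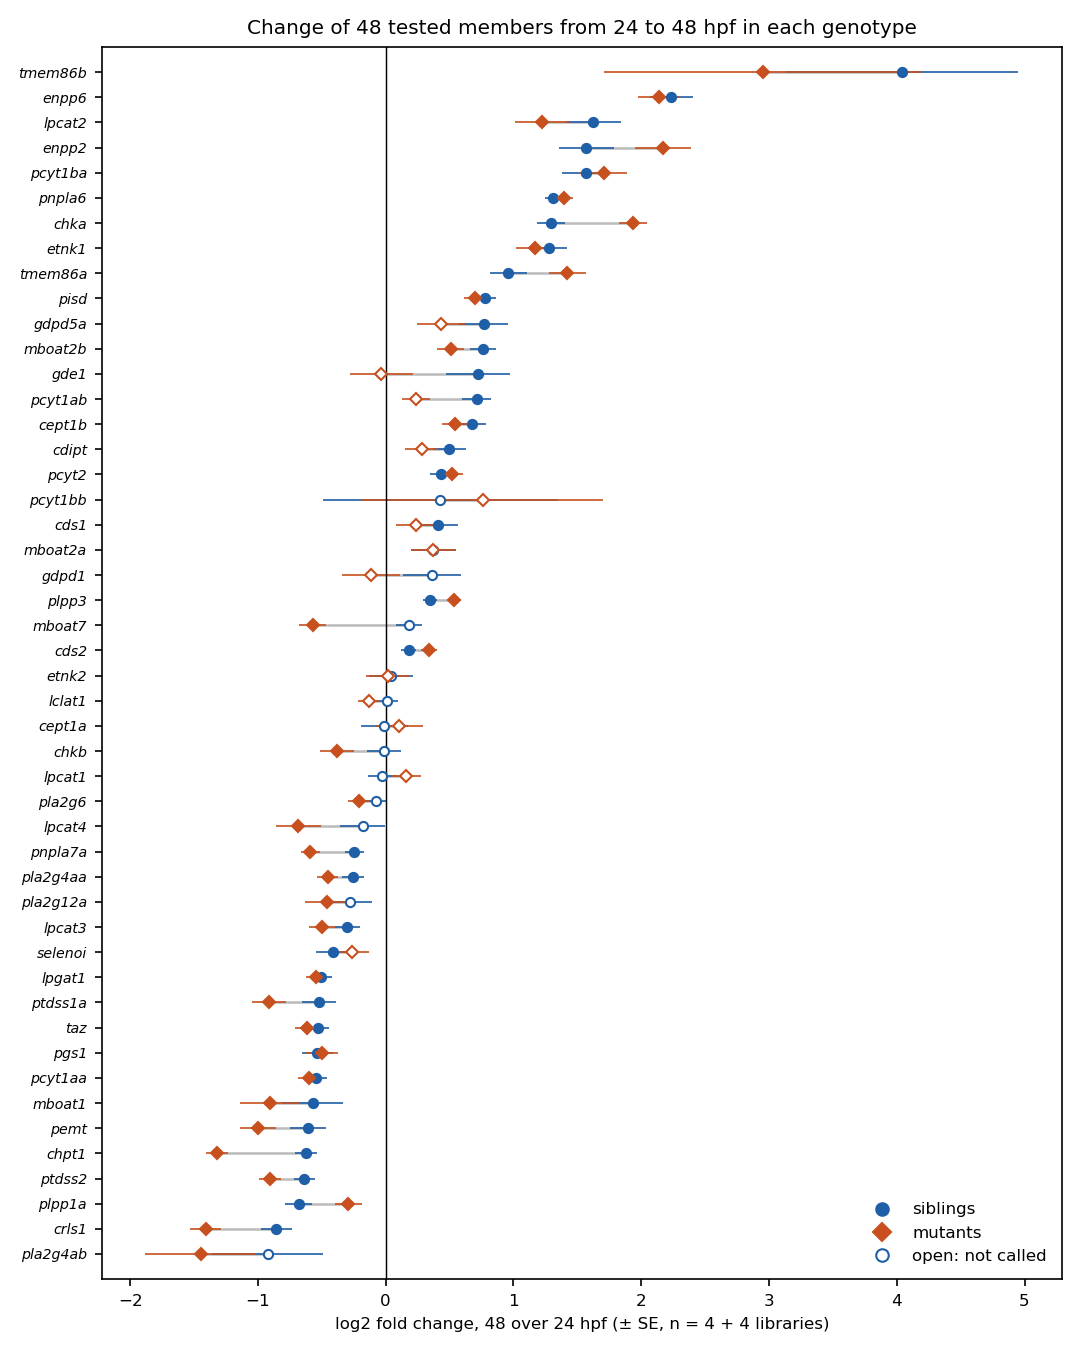
Log2 fold change from 24 to 48 hpf of the 48 tested members in siblings (circles) and mutants (diamonds), ordered by the change in siblings. Bars are 1 SE for 4 + 4 compared libraries, with the spread taken from all 16 libraries in the fit. Open symbols were not called. The diamonds of chpt1 and mboat7, called in the interaction, lie well to the left of their circles. Those of gde1 and tmem86b lie at least as far to the left (interaction -0.76 and -1.09) and were not called in it. The widest bars are those of tmem86b.

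By role, the changes with age in siblings went both ways. Of 9 kinases and cytidylyl-transferases 5 rose and 1 fell, and of 9 genes of lysophospholipid breakdown 6 rose and 2 fell. Of 5 genes for the last steps 1 rose and 3 fell, of 10 acyltransferases 2 rose and 3 fell, and of 4 phospholipase A2 genes 0 rose and 1 fell. Both lyso-plasmalogen genes rose, but tmem86b passed the filter on low counts through sib48, so its rise is not free of that selection. Of 3 tested phosphatidylserine genes 1 rose and 2 fell. Of 6 genes of the CDP-diacylglycerol, phosphatidylinositol and cardiolipin group 3 rose and 3 fell. In mutants all 4 tested phospholipase A2 genes fell with age, and 5 of 10 acyltransferases fell and 2 rose. Each of these counts stands beside 34.1% of all tested genes higher and 29.2% lower in siblings, and 34.1% and 30.4% in mutants.

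Among other genes of phospholipid metabolism, the transporters that take up lysophosphatidylcholine were higher in mutants at 48 hpf. The list held 77 genes, of which 73 matched the file and 70 were tested, and it was drawn up with earlier results of these data known. At 48 hpf 3 were higher and 6 lower, which is 12.9% against 7.43% of all tested genes, and at 24 hpf 1 was higher and 1 lower (2.86% against 0.831%). The transporter gene mfsd2aa, whose mammalian counterpart carries lysophosphatidylcholine with docosahexaenoic acid into the brain, stood at 6.56, 6.5, 5.68 and 7.69 CPM in sib48 replicates 1 to 4 and at 14.6, 16.9, 24.2 and 17.9 CPM in mut48 replicates 1 to 4. It rose 2.79-fold (log2 fold change 1.48, SE 0.165, edgeR adjusted p = 4.29e-05), while at 24 hpf it was 6.46 ± 1.14 CPM in sib24 and 6.82 ± 0.801 CPM in mut24 (SD, n = 4, edgeR adjusted p = 0.894), and the interaction was 1.40 (SE 0.232, edgeR adjusted p = 0.0101). Its paralog mfsd2ab rose 1.74-fold at 48 hpf, from 81.7 ± 9.94 to 142 ± 27.0 CPM (SD, n = 4, log2 fold change 0.80, SE 0.123, edgeR adjusted p = 0.000997). Both stood higher in every mut48 library than in any sib48 library.

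Of the genes lower in mut48, gpcpd1, whose enzyme splits glycerophosphocholine into choline and glycerol phosphate, stood at 92.3, 91.8, 86.7 and 85.6 CPM in sib48 replicates 1 to 4 and at 53.2, 49.7, 53.9 and 65.4 CPM in mut48 replicates 1 to 4. It fell 1.61-fold (log2 fold change -0.68, SE 0.12, edgeR adjusted p = 0.00278). The phosphatase gene plpp6 fell 1.33-fold, from 34.7 ± 2.79 to 26.0 ± 3.90 CPM (SD, n = 4, edgeR adjusted p = 0.0188), and was not called without sib48 replicate 3 (edgeR adjusted p = 0.0593), without mut48 replicate 2 (edgeR adjusted p = 0.0506) or when only the 48 hpf groups were fitted (edgeR adjusted p = 0.0695). The count of 6 lower genes was between 1 and 6 with 1 library left out: 2 without sib48 replicate 2, 1 without sib48 replicate 3, 2 without sib48 replicate 4, 1 without mut48 replicate 2 and 3 without mut48 replicate 3.

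At 24 hpf the gene called higher was pitpnab, of the phosphatidylinositol transfer proteins, at 6.7, 7.93, 7.75 and 7.11 CPM in sib24 replicates 1 to 4 and 9.92, 11.5, 13.0 and 10.6 CPM in mut24 replicates 1 to 4 (1.53-fold, log2 fold change 0.61, SE 0.107, edgeR adjusted p = 0.012). It was not called without sib24 replicate 1 (edgeR adjusted p = 0.0537), and its interaction with age was -0.79 (SE 0.147, edgeR adjusted p = 0.0184). The gene called lower was gpam, the mitochondrial glycerol phosphate acyltransferase at the head of glycerolipid synthesis, at 26.3, 28, 30.0 and 30.7 CPM in sib24 replicates 1 to 4 and 18.4, 16.6, 20.3 and 23.1 CPM in mut24 replicates 1 to 4 (a fall of 1.47-fold, log2 fold change -0.55, SE 0.106, edgeR adjusted p = 0.0201). It was not called without sib24 replicate 4 (edgeR adjusted p = 0.0601), mut24 replicate 1 (0.0652) or mut24 replicate 2 (0.0672). When only the 24 hpf groups were fitted, neither was called (edgeR adjusted p = 0.0572 for pitpnab and 0.0537 for gpam), nor without the libraries poor in yolk markers (0.213 and 0.119). By assembly GRCz12tu, gpam lies on the chromosome of lipf with 281 protein-coding genes between them, and an allele carried along with the mutated chromosome and an effect of the knockout cannot be told apart.

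**Figure D4:**
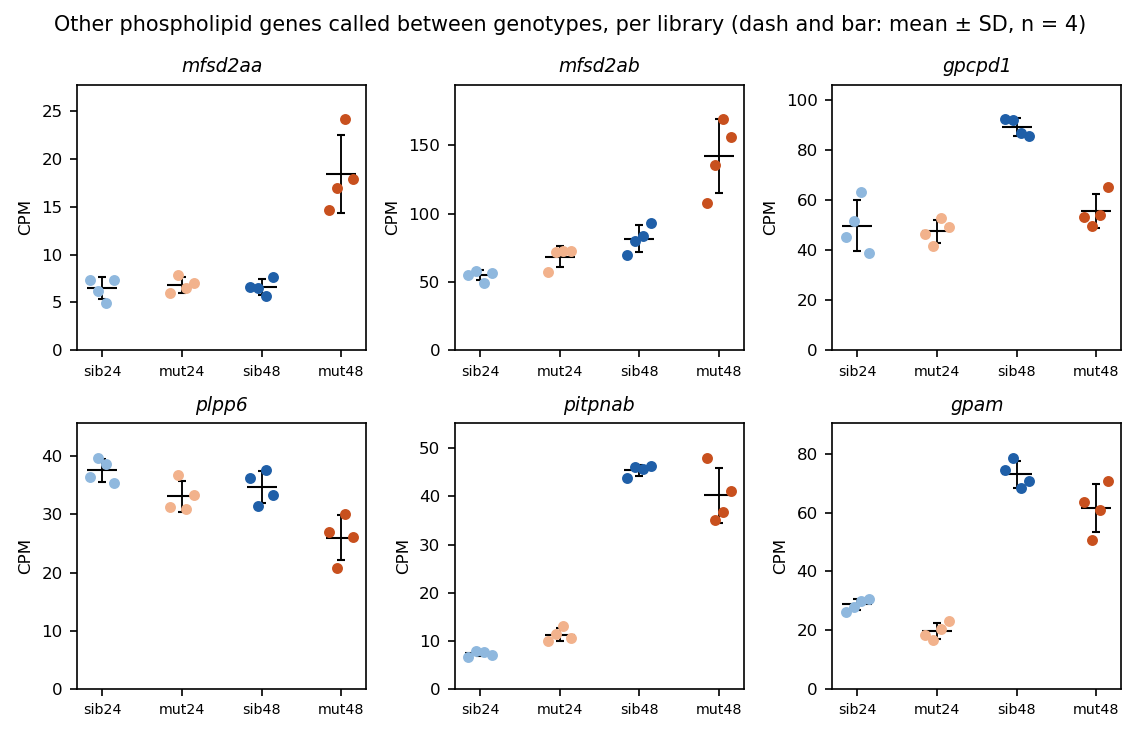
Levels in CPM of 6 further phospholipid genes called between genotypes, 1 point per library in sib24, mut24, sib48 and mut48, with the mean and SD of 4 libraries. At 48 hpf the mutant points of mfsd2aa and mfsd2ab lie above all sibling points and those of gpcpd1 and plpp6 below them. At 24 hpf pitpnab is higher and gpam lower in every mutant library.

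Within a group, members varied little between libraries, with a median coefficient of variation over the 48 tested members of 11.1% for sib24, 11% for mut24, 10.2% for sib48 and 11.5% for mut48. The cytidylyl-transferase gene pcyt1bb, chosen after its values were seen, had a coefficient of variation of 87.3% in sib24 and 152% in mut24. It stood at 0.954, 1.92, 3.58 and 0.213 CPM in sib24 replicates 1 to 4 and at 3.89, 0.0525, 0.873 and 0 CPM in mut24 replicates 1 to 4. Over the same libraries the yolk marker score was 4.50, 5.74, 6.78 and 3.27 in sib24 and 6.74, 2.72, 5.87 and 2.77 in mut24. The libraries lowest in pcyt1bb, sib24 replicate 4 and mut24 replicates 2 and 4, were also the 3 lowest in these markers. Of other members that varied at 24 hpf, also named after their values were seen, mboat1, gdpd1 and gde1 were each highest in sib24 replicate 3 and mut24 replicate 1, the libraries richest in these markers within their groups. There mboat1 stood at 32.9 and 41.2 CPM, gdpd1 at 42.3 and 43.7 CPM and gde1 at 10.6 and 15.9 CPM. Their coefficients of variation in sib24 were 43.7%, 38.3% and 30.5%. Not all varying members did so. Both tmem86a and etnk2 (21.2% and 20.9% in sib24) were highest in sib24 replicate 2 and in mut24 replicate 4, a library poor in these markers. The part of the yolk in these levels was not tested.

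**Figure D5:**
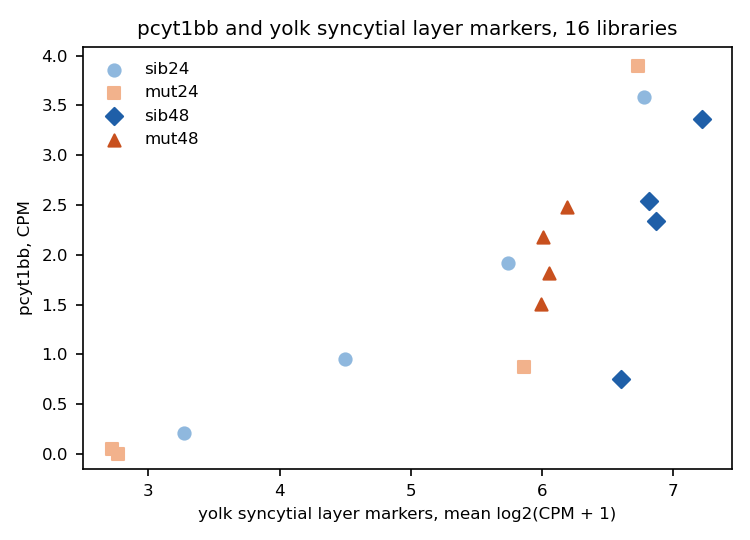
Level of pcyt1bb in CPM against the yolk marker score (mean log2(CPM + 1) of 12 genes) in each of the 16 libraries, by group. At 24 hpf the points run from near 0 CPM in the libraries poor in these markers to 3.58 CPM in sib24 replicate 3 and 3.89 CPM in mut24 replicate 1.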

How the data were processed

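The authors deposited raw read counts per gene symbol, 1 column per library, with no normalisation and no merging of libraries. Whether embryos were pooled within a library is not stated in the sources used here. The submitters' processing notes name build GRCz11 and the tools featureCounts 2.0.6, STAR 2.7.10b, Trim Galore 0.6.10 and FastQC 0.12.1. Which gene models were used, whether counting followed strand, and what became of multiply matching reads are points not stated in the labels. Paralogs with like sequences, overlapping genes and antisense pairs are therefore uncertain. Per the labels' protocols, RNA was extracted with TRIzol.

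Genes passing filterByExpr of edgeR 4.0.16 in R 4.3.3 (24300 of 36109) were scaled by TMM and tested with the quasi-likelihood F-test, two-sided, with 1 mean per group, all 16 libraries in the fit and Benjamini-Hochberg adjustment over all tested genes. The spread between 4 libraries is the error throughout. Counting intervals are not given, since reads without molecular identifiers are not independent molecules. Levels were not compared between genes, since transcript lengths were not used here. Libraries of a group differed by far more than sampling noise, so none was merged.

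The members and lists were chosen with earlier results of these data known. Full values are given for members called between genotypes or in the interaction, and in a role group without one for the member with the smallest p at 48 hpf. For age, the 4 members called in siblings that rose most and the 4 that fell most are named, and of the other phospholipid genes up to 4 called at each age. The remaining members are given by range or log2 fold change. Of 129 list entries 125 matched the file, 3 of them through a synonym. Results were recomputed with scaling by RLE or by the upper quartile, without a filter, with a stricter filter of at least 1 CPM in at least 4 libraries, with DESeq2 1.42.0, with a fit restricted to the compared groups, with a block for the replicate number, with each library left out, and with 2 alternatives added after seeing the data: a yolk marker covariate, and leaving out sib24 replicates 1 and 4 and mut24 replicates 2 and 4.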

Additional observations from a re-analysis of the deposited data

Results flagged for a closer look

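The screen for outliers covered 84 groups of 4 libraries, those of the genes picked by the naming rules given above. Genes named outside those rules, such as pcyt1bb, mboat1 and pla2g12b, were not screened. In 7 groups the gap of 1 library to the nearest other, relative to the group's range, was above Dixon's critical ratio at 95%. Chance gives about 1 in 20 groups. For pisd it was mut48 replicate 4 at 39.2 CPM, against 30.8 to 31.9 CPM in the other mut48 libraries. For plpp1a it was sib24 replicate 3 at 40.5 CPM, against 47.1 to 48.3 CPM, and sib48 replicate 2 at 30.4 CPM, against 27.9 to 28 CPM. For ptdss2 it was mut48 replicate 2 at 34.5 CPM, against 43.3 to 44.0 CPM. For lpcat2 it was sib24 replicate 3 at 6.06 CPM, against 3.91 to 4.18 CPM. For mfsd2ab it was mut24 replicate 1 at 57.2 CPM, against 71.6 to 72.9 CPM. For tmem86b it was mut24 replicate 4 at 0.0403 CPM, from 2 reads, against 0 in the other mut24 libraries. With the others all at 0, any read there gives a ratio of 1. This group, counted among the 7, is thus flagged by its low counts alone.

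Of the genes picked by these rules, 4 were called in the interaction of genotype and age in edgeR, as were 1% of all tested genes. The rules pick members partly by this same test and the other genes by their genotype calls. The count of 4 is therefore not free of that selection. Of the 70 other phospholipid genes tested, 1 was called higher and 2 lower in the interaction, mfsd2aa and pitpnab among them. The effect at 48 hpf minus that at 24 hpf was -0.76 for mboat7 (adjusted p = 0.0228), -0.70 for chpt1 (adjusted p = 0.0134), 1.40 for mfsd2aa (adjusted p = 0.0101) and -0.79 for pitpnab (adjusted p = 0.0184), in log2 units.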

How the results depend on the processing

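The calls of tmem86a, mboat7, chpt1 and cept1b at 48 hpf held in every alternative run and with each library left out. With the replicate number as a block, 3 members were lower at 48 hpf in place of 5, 2 were still higher, tmem86b (adjusted p = 0.0543) and chkb (0.0561) were lost, and so was the rise of tmem86b with age in mutants (0.0704). Same-numbered libraries deviated with correlations from -0.107 to 0.203 between genotypes, and the labels do not say what a number marks, so they were not treated as pairs. The yolk marker covariate gave 1 member higher at 24 hpf. In the interaction 1 member was higher under RLE scaling, upper-quartile scaling, the stricter filter, DESeq2 and the covariate, and 1 was lower without the 24 hpf libraries poor in yolk markers.

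For other phospholipid genes at 24 hpf, DESeq2 called 2 higher and 4 lower, the fit of only the compared groups 0 and 0, the fit without yolk-poor libraries 0 and 0, and the covariate gave 3 higher. At 48 hpf DESeq2, only the compared groups and the fit without yolk-poor libraries each gave 5 higher and the covariate 8. The lower count there was 2 under upper-quartile scaling, without a filter and with only the compared groups, and 3 with the block and without yolk-poor libraries.

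With 1 library left out, members were 0 to 1 higher and 0 lower at 24 hpf, 1 to 3 higher and 3 to 6 lower at 48 hpf, and 0 to 1 higher and 1 to 2 lower in the interaction. With age they were 17 to 21 higher and 13 to 15 lower in siblings, and 14 to 18 and 17 to 20 in mutants. Other phospholipid genes were 0 to 2 higher and 0 to 1 lower at 24 hpf, and 2 to 4 and 1 to 6 at 48 hpf.

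Uncalled values changed sign as follows. Without yolk-poor libraries the log2 fold change at 24 hpf was -0.19 for tmem86a and 0.087 for plpp1a, and the interaction was 2.26 for tmem86b and 0.16 for cept1b. With the covariate gpcpd1 was at 0.0017 at 24 hpf. With 1 library left out, the log2 fold change at 24 hpf ran from -0.24 to 0.11 for pla2g12a, from -0.034 to 0.15 for mfsd2aa, from -0.17 to 0.066 for gpcpd1 and from -0.98 to 0.052 for pla2g15, each with its sign changed without sib24 replicate 3. The interaction of tmem86b ran from -1.92 to 1.21, the latter without mut24 replicate 4. The cause was not tested.

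Over all genes, 202 were called at 24 hpf, against 840 by DESeq2, 687 with the covariate, 128 with only the compared groups and 23 without yolk-poor libraries. It was 62, 462 and 84 without sib24 replicates 1, 3 and 4, and 94, 79 and 98 without mut24 replicates 1, 2 and 3. At 48 hpf 1806 were called, against 1193 with only the compared groups, 836, 1135 and 932 without sib48 replicates 2, 3 and 4, and 1085 without mut48 replicate 2. In the interaction 244 were called, against 916, 505, 97 with the block and 102 without yolk-poor libraries, the first 2 by DESeq2 and with the covariate. It was 122, 130 and 129 without sib24 replicates 1, 2 and 4, 125, 116 and 118 without mut24 replicates 1, 2 and 3, 83, 128 and 144 without sib48 replicates 2, 3 and 4, and 152 without mut48 replicate 2. Low counts limit tmem86b, pla2g4ab, ptdss1b and pla2g3, and spread between libraries limits pcyt1bb.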

Other observations

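The gene pla2g12b, which is not a member and is named after its values were seen, was at 81.8 ± 23.2 CPM in sib48 and 38.0 ± 8.23 CPM in mut48 (SD, n = 4). The groups did not overlap, which held for 14.2% of all tested genes at 48 hpf. The gene was not called by edgeR with all 16 libraries in the fit (adjusted p = 0.582). At 24 hpf it ran from 3.27 to 139 CPM in siblings and from 1.78 to 148 CPM in mutants. That spread enters the fit, and a fit of the 48 hpf libraries alone is not given for pla2g12b.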
